A study of Mus musculus with 8 samples.

Results

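The 9 genes described here, *Clu*, *Ctsl*, *Trf*, *Cst12*, *Cst9*, *Aard*, *Defb36*, *Defb19* and *Plat*, form a list of Sertoli cell products and were selected on earlier results of the comparison between control and *Spdya* knockout testes, out of 54532 genes in the deposited table. All 9 were found by name. The differences between the groups are therefore a description of these genes, with no test of them. Of the 9 genes, 8 had a mean above 1 FPKM in both groups, and *Trf* did not. FPKM divides a gene's fragments by its length and by the size of the library, which puts levels of different genes on a common scale. For the 9 genes this length covers all annotated exons, so a gene whose transcripts in use are shorter is listed too low.

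RNA was measured by sequencing of whole testes from C57BL/6J mice, with 1 library per mouse and 4 mice per group. Spermatogenesis had been synchronized with a drug that blocks the making of retinoic acid, followed by an injection of retinoic acid (RA). Testes were taken 11.5 days after RA (RA11.5), and the labels give tamoxifen for every mouse, controls included, at RA7.5 and RA8.5. The controls were *Spdya* fl/fl, and the cKO mice were *Spdya* fl/fl;*Ddx4*-CreERT2. The Cre is driven by *Ddx4*, a germ cell gene, so that *Spdya* is deleted in germ cells and not in Sertoli cells. The 9 genes are listed as Sertoli products, and which cells made each RNA was not measured. A whole testis also holds Leydig, peritubular, endothelial and blood cells, and in bulk RNA fewer cells of a type and less RNA per cell cannot be told apart.

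Sertoli cells are the somatic cells of the seminiferous tubule. They surround the germ cells, seal the tubule with tight junctions and secrete most of the fluid and protein that germ cells meet behind that barrier. Their secretion includes carriers of metal and lipid, proteases with the matching inhibitors, and antimicrobial peptides, and several of these products are known to cycle with the stage of the germ cells next to them. All libraries came from a single time after RA, so change with the stage was not measured here.

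The libraries held 13978342 to 19583091 fragments on genes. Control replicate 1 stood apart from the other 7 libraries: mitochondrial genes took 0.464% of its fragments, against 2.20% to 3.74% in the others, and it was the highest or the lowest library for 57.8% of the 12141 protein-coding genes with a mean above 1 FPKM in both groups. Differences between the groups, and limma counts of calls for the 9 genes, are given with and without it unless stated otherwise. Means with their SD and summed levels of gene lists include it. *Spdya* itself had 20.8, 21.003, 23.8 and 19.7 FPKM in the controls and 30.5, 22.2, 26.1 and 17.7 FPKM in the cKO libraries, and the whole-gene level does not show the loss of the exon between the loxP sites. All 18 Sertoli identity genes, among them the transcription factors *Sox9*, *Wt1* and *Gata4*, were measured above 1 FPKM, while the summed level of 10 epididymal genes did not pass 0.706 FPKM in any library. The 9 genes together took 0.801% to 1.10% of protein-coding FPKM in the controls and 1.03% to 1.24% in the cKO libraries.

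*Clu* was the most abundant of the 9 genes, ranking 10th by mean FPKM among all protein-coding genes. It encodes clusterin, an extracellular chaperone and lipid carrier that was first isolated from testis fluid. The gene (ENSMUSG00000022037) lies on chromosome 14 of GRCm38 (65968483 to 65981547) and shares no exon base with another gene. *Clu* had 940.4, 777, 718 and 856 FPKM in control replicates 1 to 4 and 1025, 991, 1022 and 1188 FPKM in cKO replicates 1 to 4. Every cKO library was above every control, and cKO replicate 4 was the highest of all. The means were 823 ± 96.6 FPKM in the controls and 1056 ± 88.8 FPKM in the cKO libraries (mean ± SD, 4 mice each). On the log2 scale the difference was 0.36 with a standard error of 0.19, or 0.43 (0.14) without control replicate 1.

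*Trf* encodes transferrin, which carries iron and is a classical marker of Sertoli secretion. In these values it was near 0: 0.0230, 0.216, 0.0771 and 0.294 FPKM in the controls and 0.155, 0.0755, 0.125 and 0.142 FPKM in the cKO libraries, which are 1 to 16 fragments per library. Its listed level goes against its place in a list of abundant Sertoli products. *Trf* (ENSMUSG00000032554) lies on chromosome 9 (103204001 to 103230444), and 2108 of its 3320 exon bases (63.5%) also belong to *Gm20425*, a protein-coding gene annotated across it on the same strand, which was itself listed at 0 in 7 libraries and at 0.0252 FPKM in control replicate 1. The other 1212 exon bases of *Trf* are shared with no gene on its strand, and fragments were not counted separately for them. Among protein-coding genes that share 50 to 80% of their exon bases with another gene on the same strand, 98 of 154 (63.6%) had a mean below 0.5 FPKM, against 37.7% of the 20906 genes that share at most 5%. Whether sharing exon bases lowers a listed level was not tested. How the authors' counting treated fragments that fit both genes is not given in the sources used here, so the level of *Trf* is uncertain and no fold change is given for it.

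*Aard* was second in level and ranked 13th among protein-coding genes. It encodes a protein rich in alanine and arginine, and whether it is secreted was not checked. The gene (ENSMUSG00000068522) lies on chromosome 15 (52040107 to 52045722) and shares no exon base with another gene. The values were 1215, 641, 525 and 603 FPKM in the controls and 651, 655, 712 and 761 FPKM in the cKO libraries. Control replicate 1 was far above all the others, and each cKO library was above control replicates 2 to 4. The log2 fold change was -0.02 (standard error 0.26) with 8 libraries and 0.24 (0.13) without control replicate 1, so 1 library decided its direction.

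**Figure D1:**
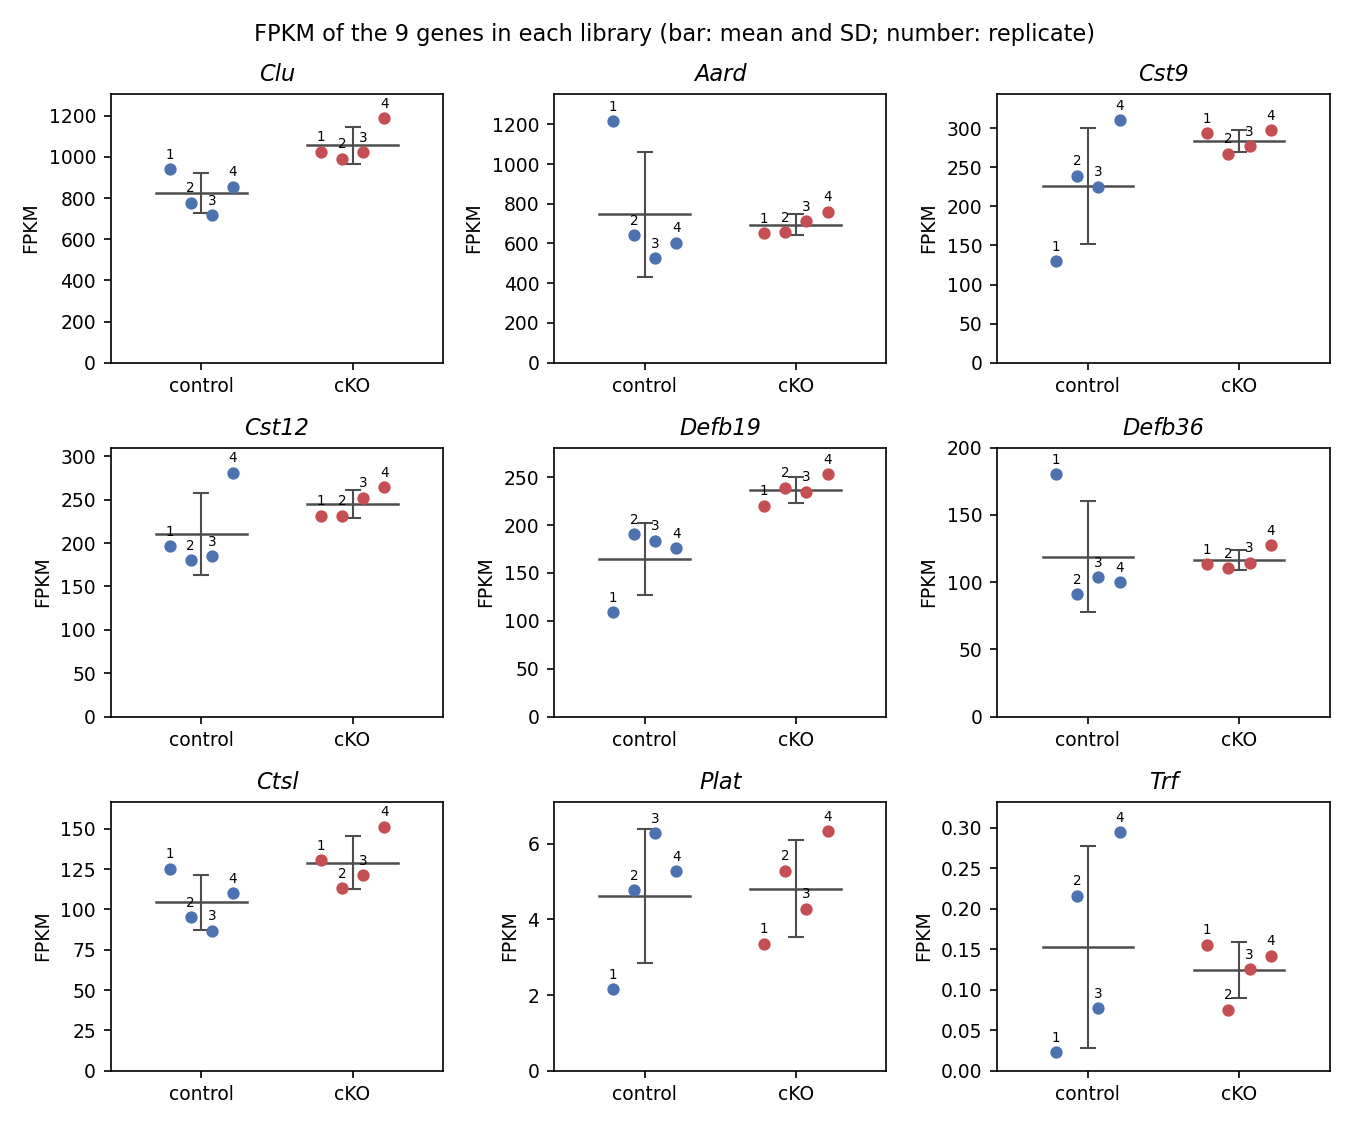
FPKM of each gene (vertical axes from 0, each on its own scale) in the 4 control libraries (blue) and the 4 cKO libraries (red), with the mean and SD as bars and the replicate number over each point. Control replicate 1 is the highest library for Aard and Defb36 and the lowest for Cst9, Defb19, Plat and Trf, and the groups do not overlap for Clu and Defb19.

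*Ctsl* (ENSMUSG00000021477) encodes cathepsin L, a cysteine protease of the lysosome that Sertoli cells also secrete. It had 125, 95.3, 86.8 and 110.0 FPKM in the controls and 130.3, 113, 121 and 151 FPKM in the cKO libraries. The groups overlapped through control replicate 1, which was above cKO replicates 2 and 3. The means were 104 ± 16.9 and 129 ± 16.5 FPKM (SD, n = 4 each), and the log2 fold change was 0.31 (standard error 0.15), or 0.40 (0.13) without control replicate 1. Its annotation on chromosome 13 (64359337 to 64370890) shares 1742 of 6489 exon bases with genes of the opposite strand and 395 bases with genes of its own strand. The genes annotated there, *Gm47123* and *Gm49230*, were listed at 0 in every library, and since the use of strand is not given, reads of overlapping genes cannot be told apart.

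*Plat* encodes tissue plasminogen activator, the protease that turns plasminogen into plasmin, and lies on chromosome 8 (ENSMUSG00000031538, 22757727 to 22782844). It was far below the other measured genes, with 2.15, 4.77, 6.27 and 5.28 FPKM in the controls and 3.36, 5.29, 4.29 and 6.33 FPKM in the cKO libraries. The groups overlapped across nearly their whole range. The log2 fold change was 0.12 (standard error 0.31) with 8 libraries and -0.20 (0.20) without control replicate 1, its lowest library with 176 fragments.

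*Cst9* and *Cst12* encode members of the cystatin family, which is named for inhibitors of cysteine proteases. Whether the products of *Cst9* and *Cst12* inhibit such proteases was not tested here. *Cst9*, also called testatin, had 129.6, 239, 225 and 309.9 FPKM in the controls and 294, 268, 277 and 298 FPKM in the cKO libraries. The lowest and the highest library were both controls, replicates 1 and 4, and the cKO libraries lay between them. *Cst12* had 196, 179.95, 185 and 281 FPKM in the controls and 232, 232, 252 and 264 FPKM in the cKO libraries. Here too control replicate 4 was the highest, while the other 3 controls were below every cKO library. The log2 fold changes were 0.40 (standard error 0.24) for *Cst9* and 0.24 (0.16) for *Cst12*, and without control replicate 1 they were 0.15 (0.13) and 0.21 (0.16).

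*Defb19* and *Defb36* encode beta-defensins, short cationic peptides that act against microbes and, in the male tract, coat sperm. *Defb19* had 109, 191, 183 and 176 FPKM in the controls and 220.0, 239, 235 and 253 FPKM in the cKO libraries. The groups did not overlap, and the cKO libraries were close together. The means were 165 ± 37.6 and 237 ± 13.5 FPKM (SD, n = 4 each), and the log2 fold change of 0.55 (standard error 0.18) was the largest of the 8 genes; without control replicate 1 it was 0.37 (0.10), below those of *Clu* and *Ctsl*. *Defb36* had 180.2, 91.2, 104 and 100.01 FPKM in the controls and 114, 111, 114 and 127 FPKM in the cKO libraries. Control replicate 1 was the highest of all and the other 3 controls were the lowest, which gave a log2 fold change of 0.03 (standard error 0.20) with 8 libraries and 0.24 (0.10) without control replicate 1.

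The pair of cystatins and the pair of defensins each lie in a cluster of related genes on chromosome 2, and the level within a cluster was uneven. *Cst12* (ENSMUSG00000027443, 148789361 to 148793546) and *Cst9* (ENSMUSG00000027445, 148835147 to 148838738) are 41600 bases apart, with *Cst8* (mean 2.48 FPKM) and *Cst13* (0.114 FPKM) between them. The next gene, *Cst3*, which encodes the widely made cystatin C, had 116 FPKM, and *Cst11* on the other side 2.00 FPKM. *Defb19* (ENSMUSG00000050645, 152576086 to 152580312, minus strand) and *Defb36* (ENSMUSG00000044863, 152604327 to 152612729, plus strand) are 24014 bases apart with *Defb45* (0.478 FPKM) between them. The highest mean of the other 9 defensin genes of that cluster was 0.940 FPKM, against 201 FPKM for *Defb19* and 118 FPKM for *Defb36*.

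**Figure D2:**
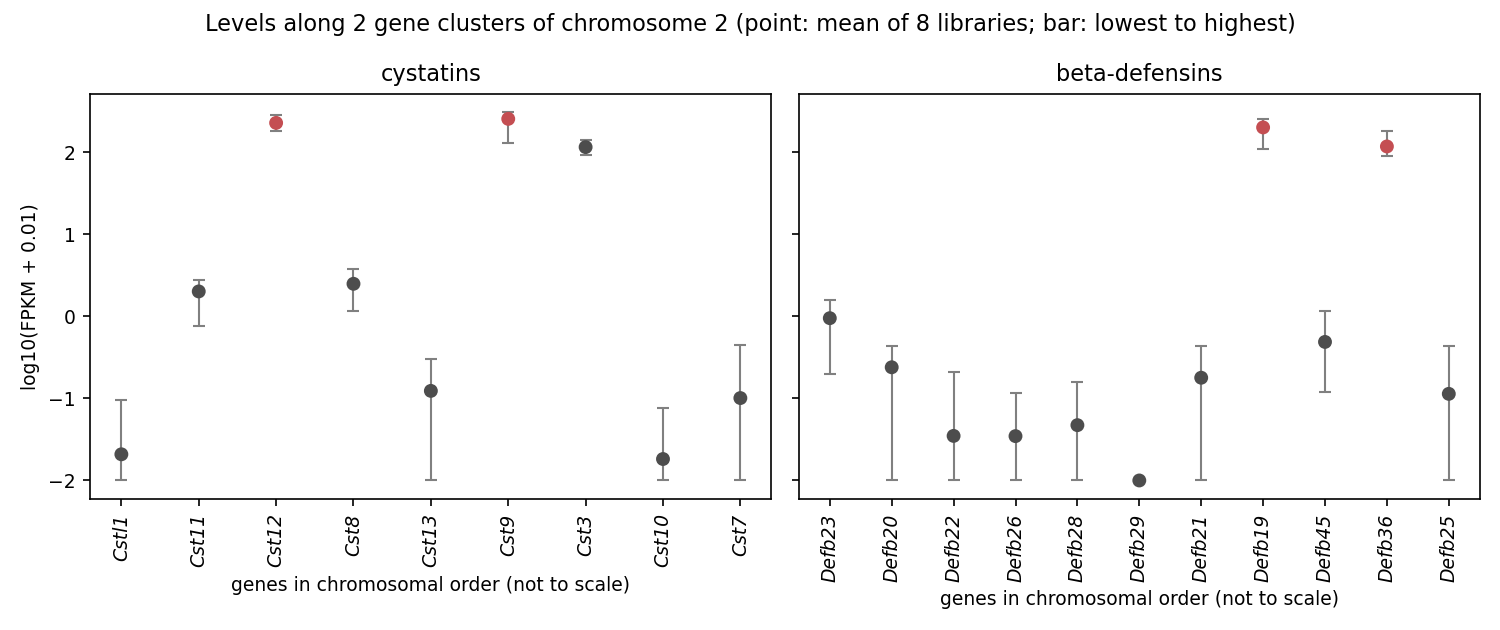
Mean level over the 8 libraries as log10(FPKM + 0.01), with bars from the lowest to the highest library, for the cystatin genes (left) and beta-defensin genes (right) of chromosome 2 in chromosomal order, not to scale; red points are Cst12, Cst9, Defb19 and Defb36. These 4 genes and Cst3 have means of 116 to 255 FPKM, and no other gene has a mean above 2.48 FPKM.

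The starts of *Cst12*, *Cst9* and *Defb36* are shown because these neighbouring genes reach a level that most genes of their clusters do not. RefSeq gives such a window, from 250 bases before to 50 bases after the start, for 4 of the 9 genes, the fourth being *Ctsl*. Coordinates are on GRCm38.p6, and the sequences read 5′ to 3′ on the gene's own strand, which is plus for the 3 genes shown. Capitals mark matches to any of 4 motifs searched on both strands: AACAAT, the core bound by SOX factors; AGATAA, bound by GATA factors; AGGTCA, an arm of nuclear receptor sites; and TGTTCT, an arm of the androgen receptor site.
Cst12, chr2:148789115-148789414: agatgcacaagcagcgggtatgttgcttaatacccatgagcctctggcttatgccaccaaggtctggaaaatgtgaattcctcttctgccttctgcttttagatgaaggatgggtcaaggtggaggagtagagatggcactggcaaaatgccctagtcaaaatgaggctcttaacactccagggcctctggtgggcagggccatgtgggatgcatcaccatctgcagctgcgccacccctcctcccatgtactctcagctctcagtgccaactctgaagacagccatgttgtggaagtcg
Cst9, chr2:148834897-148835196: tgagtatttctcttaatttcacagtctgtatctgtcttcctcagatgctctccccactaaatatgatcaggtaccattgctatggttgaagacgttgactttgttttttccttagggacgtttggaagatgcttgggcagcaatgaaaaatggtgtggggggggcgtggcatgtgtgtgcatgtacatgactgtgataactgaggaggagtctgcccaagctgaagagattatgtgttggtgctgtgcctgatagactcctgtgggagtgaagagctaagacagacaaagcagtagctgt
Defb36, chr2:152604077-152604376: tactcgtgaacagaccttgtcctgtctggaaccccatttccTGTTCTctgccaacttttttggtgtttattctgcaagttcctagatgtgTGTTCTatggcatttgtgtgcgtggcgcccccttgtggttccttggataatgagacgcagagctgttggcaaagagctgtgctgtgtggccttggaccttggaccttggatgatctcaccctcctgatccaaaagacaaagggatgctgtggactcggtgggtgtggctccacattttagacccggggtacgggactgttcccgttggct
The *Defb36* window holds TGTTCT at 2 places, at -209 and -160 from the start, while the *Cst12* and *Cst9* windows hold none of the 4 motifs. The *Ctsl* window on chromosome 13 holds AACAAT once, on the other strand. Of 32851 windows of the same length, 19% held TGTTCT, 10.7% AACAAT, 11.2% AGATAA and 16.3% AGGTCA, so that a match in 1 window is common.

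Ordered by their mean over the 8 libraries, the levels were *Clu* (939.5 FPKM), *Aard* (720.3), *Cst9* (255), *Cst12* (228), *Defb19* (201), *Defb36* (118), *Ctsl* (117), *Plat* (4.72) and *Trf* (0.138). *Defb36* and *Ctsl* did not differ beyond their spread, with a mean log2 difference of 0.00 and an SD of 0.26 over the libraries. Their FPKM rest on lengths of 468 bases (1 annotated transcript) and 6489 bases (7 annotated transcripts), so the order of this pair depends on the length used. *Defb36* was the higher of the pair in 2 of 8 libraries. Without control replicate 1 this difference was -0.07 ± 0.16, with *Defb36* higher in 1 of 7. *Cst12* and *Defb19* (0.21 ± 0.35, with *Cst12* higher in 6 of 8 libraries) did not differ beyond their spread either. The steps from *Clu* to *Aard* (0.41 ± 0.34), from *Cst9* to *Cst12* (0.14 ± 0.31) and from *Defb19* to *Defb36* (0.76 ± 0.61) had the same sign in 7 of 8 libraries, with control replicate 1 the other way round in all 3. Over the other 7 libraries these steps were 0.52 ± 0.13, 0.24 ± 0.11 and 0.97 ± 0.12, each beyond its spread.

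On the log2(FPKM + 0.1) scale, 7 of the 8 genes had a higher mean in the cKO libraries, with a median log2 fold change of 0.28, while the median over the 12141 genes was 0.01. The test of all genes, limma with Benjamini-Hochberg adjustment, called 2 genes at an adjusted p below 0.05, or 0.0165% of those tested, and none of the 8. At an unadjusted p below 0.05 it called 1 of the 8, *Defb19*, where 10.9% of all genes passed. With voom on the recovered fragments, 0 of the 8 passed at an adjusted p below 0.05, as against 0.0165% of all genes, and 3 at an unadjusted p below 0.05, as against 10.6%. The cKO libraries were all above the controls for 2 of the 8, *Clu* and *Defb19*, and for 3.64% of all genes. Since the genes were chosen on this contrast, nothing is read from these counts. Without control replicate 1, limma called 0 of the 8 at an adjusted p below 0.05 (0.0165% of all genes) and 4 at an unadjusted p below 0.05, *Clu*, *Ctsl*, *Defb19* and *Defb36* (15.6%). Leaving out this library, the groups did not overlap for 5 of the 8, with *Aard*, *Ctsl* and *Defb36* added, and for 8.29% of all genes with higher cKO levels. The median was then 0.24 for the 8 genes and 0.03 for all genes, and *Plat* was the gene with the lower mean in the cKO libraries, in place of *Aard*.

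**Figure D3:**
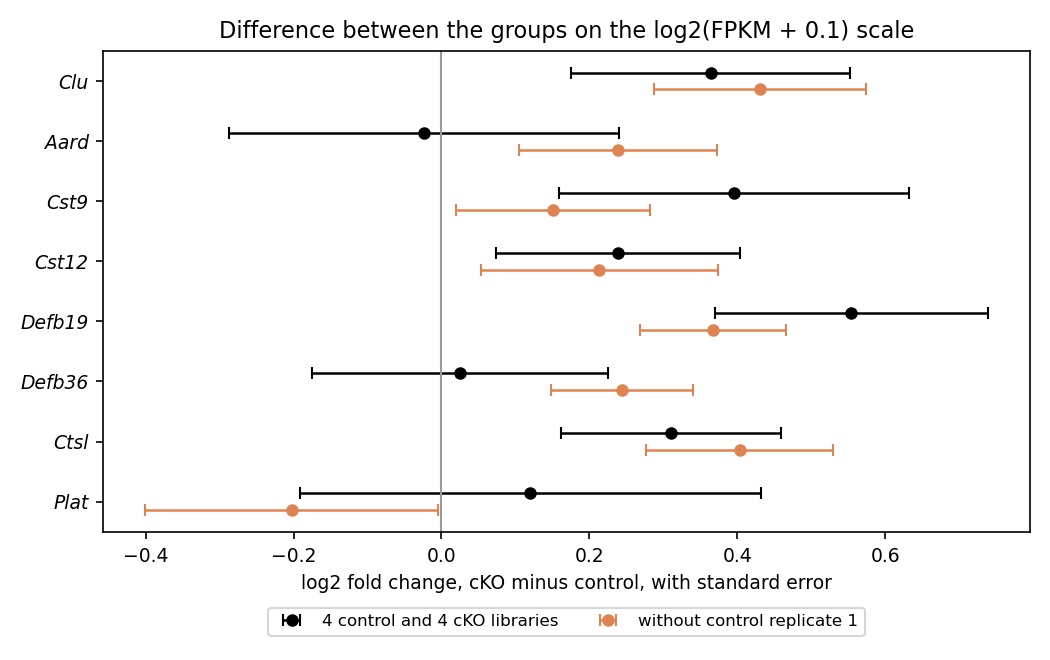
Log2 fold change of cKO minus control on the log2(FPKM + 0.1) scale (horizontal axis) with its standard error, for the 8 genes with a mean above 1 FPKM, over all libraries (black) and without control replicate 1 (orange). Leaving that library out moved Aard from -0.02 to 0.24, Defb36 from 0.03 to 0.24 and Plat from 0.12 to -0.20, while Clu went from 0.36 to 0.43.

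Marker genes of Sertoli and other cells were compared between the same groups, since a whole testis mixes them. The Sertoli identity genes had a median log2 fold change of 0.14, with 15 of 18 above 0, and summed levels of 703 to 939.8 FPKM in the controls and 759.8 to 925 FPKM in the cKO libraries, which overlap. Macrophage genes had a median of 0.72, with all 7 above 0, and their sums did not overlap, at 15.6 to 30.8 FPKM in the controls and 34.4 to 45.3 FPKM in the cKO libraries. The medians were 0.41 for endothelial, 0.39 for Leydig, 0.23 for peritubular and 0.87 for red blood cell genes (3 tested), 0.09 for spermatogonial genes, 0.30 for the 1 spermatid gene tested, and -0.18 for spermatocyte genes, of which 2 of 7 were above 0. Without control replicate 1 the medians were 0.18 for Sertoli identity, 0.56 for macrophage, 0.40 for endothelial, 0.22 for Leydig, 0.30 for peritubular, 0.61 for red blood cell, 0.03 for spermatogonial and -0.11 for spermatocyte genes, and 0.71 for the spermatid gene. The summed levels of the controls and of the cKO libraries overlapped for peritubular (53.0 to 86.2 and 82.0 to 115 FPKM), endothelial (8.76 to 14.9 and 14.5 to 18.5 FPKM), Leydig (30.0 to 61.1 and 47.4 to 68.3 FPKM), red blood cell (10.8 to 39.8 and 22.0 to 46.7 FPKM), spermatogonial (155 to 227 and 197 to 208 FPKM), spermatid (2.52 to 9.56 and 4.39 to 6.31 FPKM) and spermatocyte genes (905 to 1229 and 774 to 1204 FPKM). Of the 58 genes tested in these lists, none passed at an adjusted p below 0.05 in limma or with voom, and 13 were higher and 2 lower at an unadjusted p below 0.05 (18 in all with voom), where 10.9% of all genes passed in limma and 10.6% with voom. Without control replicate 1, 0 passed at an adjusted p below 0.05 in limma, and 12 were higher and 4 lower at an unadjusted one, where 15.6% of all genes passed. No gene of the lists was at 0 in all libraries. Their part in the differences of the 9 genes was not tested. Every library was also set relative to the mean log2 level of the Sertoli identity genes, a shift of 0.14. The log2 fold changes (standard error) were then 0.41 (0.22) for *Defb19*, 0.26 (0.27) for *Cst9*, 0.22 (0.21) for *Clu*, 0.17 (0.17) for *Ctsl* and 0.10 (0.19) for *Cst12*. They were -0.02 (0.31) for *Plat*, -0.11 (0.20) for *Defb36* and -0.16 (0.25) for *Aard*. This scaling was not repeated without control replicate 1.

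Ratios between these genes within a library do not depend on how the library was scaled. *Clu* over *Ctsl* was nearly constant, from 7.51 to 8.27 in the controls and from 7.85 to 8.77 in the cKO libraries. *Defb19* over *Defb36* was 0.605 in control replicate 1 and 1.76 to 2.16 in the other 7 libraries. *Cst9* over *Cst12* was 0.660 in control replicate 1 and 1.10 to 1.33 in the others. For *Clu* over *Aard*, the controls had 0.774, 1.21, 1.37 and 1.42 and the cKO libraries 1.57, 1.51, 1.43 and 1.56. The highest control and the lowest cKO library of this ratio nearly met, and no share over other gene pairs was computed. Without control replicate 1, this ratio differed between the groups by 0.19 on the log2 scale, and the other 3 ratios by at most 0.12 in size.

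**Figure D4:**
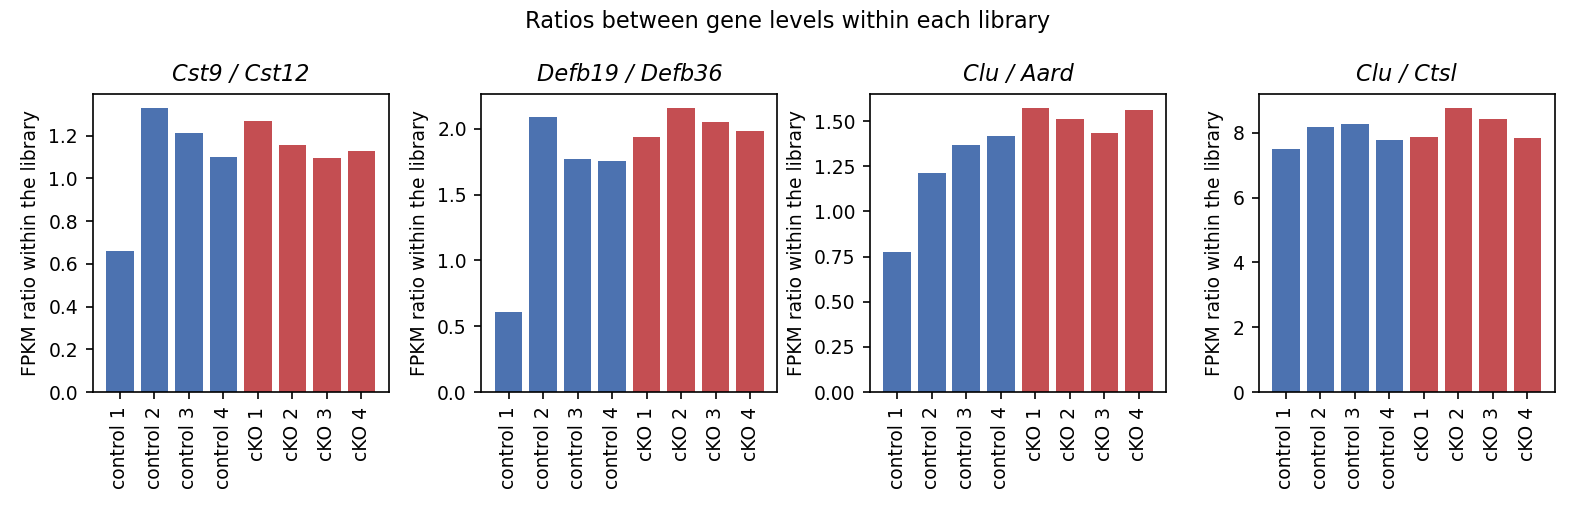
Ratio of 2 gene levels within each library (vertical axes from 0; no error, as each bar is 1 library) for the 4 controls (blue) and the 4 cKO libraries (red). Control replicate 1 has the lowest bar in all 4 panels, by far in Cst9 / Cst12 and Defb19 / Defb36, while Clu / Ctsl stays between 7.51 and 8.77.

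Whether the genes rose and fell together between mice was tested for the 28 pairs of the 8 genes over the 8 libraries, which share the scaling and the difference between the groups. *Clu* and *Ctsl* were the 1 pair that passed, with Pearson's r = 0.96 (exact permutation p = 0.000372, Benjamini-Hochberg adjusted p = 0.0104, two-sided, n = 8). Spearman's rho was 0.93 (exact permutation p = 0.00223, adjusted p = 0.0625, n = 8), so that no pair passed by rank. The r of this pair was 0.87 without the 2 libraries farthest from the median of *Clu*, 0.97 without control replicate 1, and 0.98 after the group means were subtracted. The permutations mixed the groups, so the difference between the groups enters these p values. No share of other gene pairs with such an r was computed, so the pair is not shown to be particular. No pair passed when control replicate 3 or cKO replicate 4 was left out, while 2 passed without control replicate 2 and 3 without control replicate 4. *Aard* and *Defb36* had an r of 0.92 (exact permutation p = 0.00821, adjusted p = 0.115, n = 8), 0.80 without the 2 libraries farthest from the median of *Aard* and 0.63 without control replicate 1. Their rho was 0.88 (exact permutation p = 0.00724, adjusted p = 0.0676, n = 8).

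The sign of several pairs turned on control replicate 1. The r of *Defb19* and *Defb36* was -0.56 with and 0.84 without this library, that of *Aard* and *Cst9* was -0.73 and 0.58, and that of *Cst9* and *Cst12* was 0.64 and 0.93. Without it, the 21 pairs that leave out *Plat* had r from 0.34 to 0.97, whereas *Plat* had an r below 0 with 6 of the other 7 genes. Over all 28 pairs the median r was 0.33 with 8 libraries and 0.67 with 7.

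**Figure D5:**
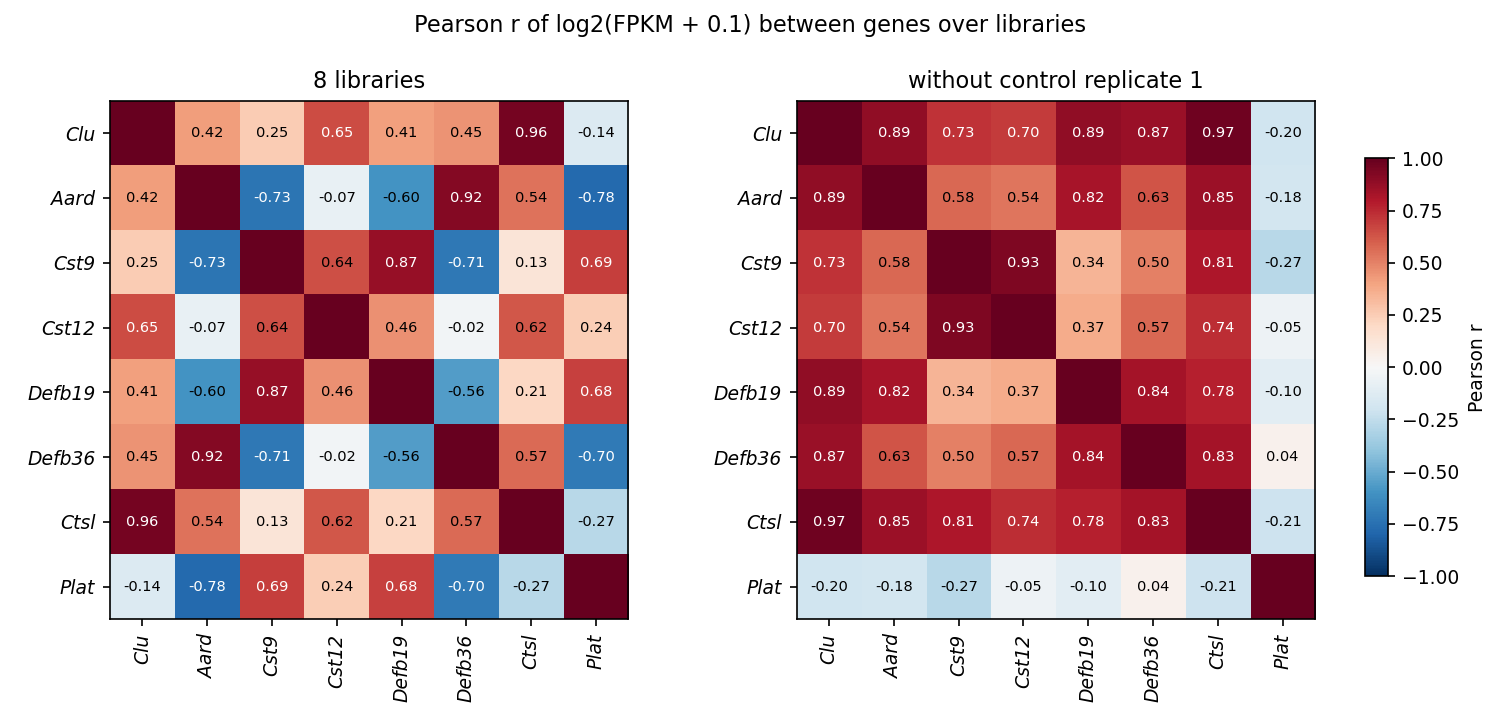
Pearson r of log2(FPKM + 0.1) between each pair of the 8 genes (color from -1 in blue to 1 in red, value in each square) over 8 libraries (left) and over 7 without control replicate 1 (right). Clu and Ctsl have 0.96 and 0.97, and the negative squares of Aard and Defb36 with Cst9 and Defb19 on the left become positive on the right.

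By the mean r over the 8 genes, after the group means were subtracted, the 5 other genes most like them were *Ankrd27* (mean r = 0.40), *Kpna1* (0.40), *Pcolce* (0.39), *Col6a4* (0.39) and *Fastkd3* (0.39), over 8 libraries. These had mean levels of 3.77 to 15.4 FPKM. They are the top of all genes tested, and the ranking is given only with control replicate 1 included. Their likeness was uneven: *Pcolce* had r = 0.86 with *Clu* and -0.15 with *Defb19*, and *Kpna1* had 0.83 with *Cst12* and 0.05 with *Defb19*.

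The genes around each product in its pathway were counted in the same fit. No gene of the 7 lists passed at an adjusted p below 0.05, in limma or with voom, where 0.0165% of all genes passed in each. The unadjusted counts below stand beside 10.9% of all genes in limma and 10.6% with voom, and the medians beside 0.01 for all genes. Without control replicate 1, the medians were 0.23 for other Sertoli products, 0.20 for plasminogen activation, 0.38 for cathepsins, 0.29 for cystatins, 0.09 for iron and 0.28 for clusterin partners, and the counts at an unadjusted p below 0.05 were 7 higher and 1 lower for the first list and, all higher, 2, 4, 1, 3 and 4 for the others in this order, where 15.6% of all genes passed. Among 19 measured genes for other Sertoli products, 6 were higher and 1 lower at an unadjusted p below 0.05 (6 in all with voom), and their median log2 fold change was 0.16. The lists are not independent: *Amh*, *Inha*, *Kitl*, *Gdnf* and *Dhh* are also Sertoli identity genes, and *Lrp1* and *Cp* are each in more than 1 pathway list. The 3 most abundant were *Psap*, for the lysosomal protein prosaposin, with 338 ± 143 and 323 ± 21.1 FPKM, *Inha*, for the inhibin alpha subunit, with 210.5 ± 31.3 and 222 ± 21.2 FPKM, and *Sparc*, for a matrix glycoprotein, with 150.2 ± 27.6 and 217 ± 28.2 FPKM (control and cKO mean ± SD, n = 4 each). *Psap* had 553 FPKM in control replicate 1 and 264 to 349 FPKM in the other 7 libraries, as *Aard* stood out there.

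The partners of plasminogen activation, 8 measured genes, had a median of 0.27, with 2 higher and 0 lower at an unadjusted p below 0.05 (2 with voom). Those with the highest level were *S100a10* (46.1 ± 7.37 and 55.3 ± 9.74 FPKM) and *Anxa2* (40.1 ± 4.78 and 50.7 ± 4.70 FPKM), which form a plasminogen receptor together, and *Lrp1* (17.0 ± 1.92 and 20.6 ± 2.55 FPKM), which clears protease and inhibitor complexes from outside the cell. Of the 9 other cathepsins measured, all had a log2 fold change above 0, with a median of 0.38, and 5 had an unadjusted p below 0.05 (5 with voom). *Ctsf* had 63.0 ± 7.78 and 63.7 ± 10.04 FPKM, *Ctsd* 47.2 ± 5.08 and 57.4 ± 4.57 FPKM, and *Ctsb* 20.3 ± 2.71 and 27.7 ± 3.49 FPKM. Cathepsins are also abundant in macrophages, whose genes had the median of 0.72 given above. Whether macrophages had a part in the cathepsin differences was not tested.

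Of the other cystatins, 4 were measured, all with a log2 fold change above 0 and a median of 0.43, and 2 with an unadjusted p below 0.05 (2 with voom). *Cst3* had 103 ± 10.9 and 128 ± 13.2 FPKM, and *Cstb*, a cystatin of the cytoplasm, 15.7 ± 5.49 and 24.3 ± 2.46 FPKM. *Cst8* had 2.10 ± 1.15 and 2.87 ± 0.437 FPKM and *Cst11* 1.92 ± 0.855 and 2.09 ± 0.696 FPKM. Of 39 other beta-defensin genes, 19 were listed at 0 in every library and 1 was measured, *Defb47*, with 2.58 ± 0.529 and 2.12 ± 1.06 FPKM.

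For iron uptake and storage, 13 genes had a median of 0.15, with 2 higher and 0 lower at an unadjusted p below 0.05 (2 with voom). The ferritin chains *Fth1* (381 ± 47.4 and 422 ± 28.2 FPKM) and *Ftl1* (82.7 ± 28.7 and 97.3 ± 14.4 FPKM) and the iron chaperone *Pcbp1* (117 ± 25.6 and 121 ± 8.66 FPKM) were the highest. The 6 measured receptors and partners of clusterin had a median of 0.26, with 3 higher and 0 lower at an unadjusted p below 0.05 (3 with voom). *Apoe*, for another lipid carrier, had 31.8 ± 11.5 and 45.4 ± 6.87 FPKM, and *Bax*, a cell death protein that clusterin binds, had 29.3 ± 6.45 and 31.8 ± 1.68 FPKM, with *Lrp1* as the third. Control replicate 1 moved such means both ways. It was the highest control for *Bax* (38.2 FPKM, the others 23.4 to 29.6) and the lowest for *Cstb* (8.60 FPKM, the others 15.1 to 21.8).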

How the data were processed

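The authors deposited FPKM values for 54532 genes, made by a sequencing company's software from paired reads of total RNA; the aligner, counting tool and use of strand are not given in the sources used here. Builds in the submitters' processing notes are GRCm38 and mm10. FPKM multiplied by gene length came out whole for 100% of values above 0 (tolerance 0.02), which gave the fragments back; the scaled library size within FPKM was 0.938 to 1.05 times the fragment total. At the lowest library, fragments give a counting error of 0.509% (*Clu*) to 7.54% (*Plat*).

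Genes were tested with limma 3.58.1 in R 4.3.3 (mean trend) on log2(FPKM + 0.1), which understates changes of low genes, over protein-coding genes with mean FPKM above 1 in both groups. Correlations used all 40320 pairings. Named genes were the 9, the 3 most abundant of each pathway list, cystatins and defensins with a mean above 1 FPKM and the 5 most alike; the others were chosen after their values were seen. The genes and lists were chosen with earlier results of these data known. The least different replicates differed by 4.61 times the sampling noise. Each group holds mice sampled once, and the labels give no batch. Alternatives were other pseudocounts, scalings, filters, a replicate block, voom and each library left out. The procedure was tested on simulated data.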

Additional observations from a re-analysis of the deposited data

Results flagged for a closer look

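In groups of 4 libraries, 4 values stood far from the other 3 by Dixon's test at the 95% level: *Aard* at 1215 FPKM and *Defb36* at 180.2 FPKM in control replicate 1, *Cst12* at 281 FPKM in control replicate 4, and *Clu* at 1188 FPKM in cKO replicate 4. All 4 were the highest of their group. Over the 18 groups tested, chance flags about 0.9.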

How the results depend on the processing

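The count of genes called over the whole transcriptome, 2, was 1 with autosomal median centring or TPM rescaling, 0 without the FPKM filter or with a mean FPKM above 5, 4 with all biotypes, and 0 to 3 when each library was left out, where removing control replicate 2, control replicate 3, cKO replicate 1, cKO replicate 3 or cKO replicate 4 gave 0 and removing control replicate 4 gave 1; the cause was not tested. With the replicate block it was 0. The shared replicate numbers were treated as names and not as a pairing: control and cKO libraries of the same number had deviations from their group means with r from 0.0757 to 0.406, above 0.1 in 3 of 4 pairs, and 5 of 8 libraries correlated best with their own number. With 1 control and 1 cKO library per number, the block leaves every log2 fold change the same by design. The unchanged values of the 8 genes therefore say nothing about a pairing. No log2 fold change of the 8 genes moved by more than the spread between replicates, but this spread includes control replicate 1. The pooled log2 SD with and without that library was 0.39 and 0.12 for *Aard* and 0.32 and 0.09 for *Defb36*. It was 0.38 and 0.16 for *Cst9* and 0.27 and 0.07 for *Defb19*. Leaving that library out moved the log2 fold changes of these genes by more than the smaller SD. Direction was not kept for 3: with each library left out, *Aard* ranged from -0.17 to 0.24, *Defb36* from -0.08 to 0.24 and *Plat* from -0.20 to 0.30, and *Aard* was 0.06 with TPM rescaling. Counts of called genes in the 7 pathway lists stayed at 0 under each alternative tried. The 1 correlated pair became 0 to 3 pairs when each library was left out, and stayed 1 under another pseudocount, centring, and relative to the Sertoli identity genes; that scaling of the fold changes was added after seeing the data. For *Clu* (0.30 to 0.43), *Ctsl* (0.23 to 0.40), *Cst12* (0.17 to 0.39), *Cst9* (0.15 to 0.57) and *Defb19* (0.37 to 0.64), leaving out any 1 library kept the direction.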

Other observations

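*Stra8*, a gene of germ cells that respond to retinoic acid, chosen after its values were seen, had 5.92, 4.53, 19.8 and 12.9 FPKM in the controls and 2.03, 3.93, 2.93 and 4.70 FPKM in the cKO libraries. The groups overlapped, as control replicate 2 was below cKO replicate 4. The log2 fold change of *Stra8*, with control replicate 1 included, was -1.46 (standard error 0.44, limma adjusted p = 0.28). It is 1 of the 8 spermatogonial genes, of which 6 had a log2 fold change above 0, with a median of 0.09.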
